A study of Mus musculus with 8 samples.

Results

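The 10 genes described here encode the releasing hormones of the adrenal and thyroid axes, their receptors and a binding protein, and the nuclear receptors for corticosteroids and thyroid hormone. They were listed by name for these roles and matched by Ensembl identifier to 10 of the 55890 genes in the count table. Hypothalamic RNA came from female mice aged 16 weeks, in 4 pools for each genotype with 2 animals in a pool. POMC-C451Af/f mice carry a floxed C451A allele of *Esr1*, the gene of estrogen receptor alpha, and a POMC-Cre transgene, so that the change in the receptor is directed to cells in which the POMC promoter of the transgene is or was active. The sample labels call the controls wildtype, whereas the study's methods describe homozygous C451Af/f littermates, and neither source gives them the transgene. Estimated counts summed over all genes ranged from 36095253 to 40498166 in POMC-C451Af/f pools and from 37841365 to 48942116 in control pools. Levels are given as CPM, counts scaled to the size of the library. *Esr1* was counted at 11.6, 12.2, 9.997 and 10.8 CPM in POMC-C451Af/f replicates 1 to 4 and at 12.3, 12.8, 11.6 and 16.0 CPM in control replicates 1 to 4, but a gene count does not tell the mutated transcript from the intact one. The pools, and not the animals in them, are the replicates throughout.

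Corticotropin-releasing hormone is released by paraventricular neurons onto the pituitary, where it drives the secretion of corticotropin and, through it, of adrenal corticosteroids. Thyrotropin-releasing hormone from neighbouring paraventricular neurons drives the release of thyrotropin and, through it, of thyroid hormone. Both end hormones act back on the hypothalamus through nuclear receptors that bind DNA and lower the transcription of the releasing hormones.

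The tissue label was checked against 12 genes that mark hypothalamic nuclei. Of these, 11 passed the filter on low counts, and *Kiss1*, at no more than 0.349 CPM, was at 0 in 6 of the 8 pools. Their summed level was 1039, 1212, 714 and 911 CPM in POMC-C451Af/f replicates 1 to 4 and, for control replicates 1 to 4, 1425, 1011, 1233 and 975 CPM, with *Pmch*, the melanin-concentrating hormone gene, the most abundant in each pool. POMC-C451Af/f replicate 3 was therefore the lowest pool and control replicate 1 the highest. The summed level of the 5 paraventricular markers, most of it from *Oxt* and *Avp*, was also lowest in POMC-C451Af/f replicate 3, at 321 CPM, and highest in control replicate 1, at 637 CPM. Singly, 4 of the 5 were lowest in the former pool and 3 of the 5 highest in the latter. Of the tested genes, 0 of 11 hypothalamic and 0 of 5 paraventricular markers had an unadjusted p under 0.05 between genotypes in edgeR's quasi-likelihood test. Their median log2 fold changes of POMC-C451Af/f over control were -0.19 and -0.21, where the median of all 18637 tested genes was 0.00085. Single pools moved both lists. With POMC-C451Af/f replicate 2 left out, 4 of 11 and 2 of 5 were lower at an unadjusted p under 0.05, with medians of -0.335 and -0.34, and without POMC-C451Af/f replicate 3 the medians were -0.12 and -0.10, with 0 such genes in either list. With the midbrain list mean as a covariate both medians changed sign, to 0.041 and 0.080.

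Markers of neighbouring tissue differed between the pools. A list of 8 genes of midbrain dopaminergic neurons had a summed level of 88.1, 51.0, 164 and 112 CPM in POMC-C451Af/f replicates 1 to 4 and, for control replicates 1 to 4, 43.8, 36.9, 55.9 and 73.8 CPM. *Slc6a3*, the dopamine transporter gene and the most abundant of them in POMC-C451Af/f replicate 3, reached 90 CPM there and 53.8 CPM in POMC-C451Af/f replicate 4, against 4.24 to 26.4 CPM in controls. In this list 7 of 8 genes had an unadjusted p under 0.05 in edgeR's test, all 7 higher in POMC-C451Af/f pools, and the median log2 fold change was 1.07. Leaving out replicate 3 of POMC-C451Af/f gave 3 of 8 and a median of 0.66, and with each pool left out in turn the count was 3 to 8 and the median up to 1.33. None of the 8 was at 0 in any pool. The 6 thalamic markers were high in POMC-C451Af/f replicate 3 and in control replicate 2, with summed levels of 312 and 310 CPM, led by *Prkcd*, and were lowest in control replicate 1 at 49.3 CPM. They had 0 of 6 genes with an unadjusted p under 0.05 and a median log2 fold change of 0.32, but both rested on single pools. Without control replicate 2, 5 of 6 were higher at an unadjusted p under 0.05, with a median of 1.06, and the median was 0.024 without POMC-C451Af/f replicate 3 and 0.031 without control replicate 1.

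Control replicate 1 also held the most RNA of anterior pituitary genes. The 9 genes of that list summed to 1455 CPM in it, of which *Prl*, the prolactin gene, gave 1013 CPM, and to between 17.8 and 225 CPM in the other pools. Of the 5 that could be tested, 0 had an unadjusted p under 0.05, with a median of -0.63. This direction came from control replicate 1, since without it the median was 0.36, with 5 of 5 above 0. The defining markers at 0 were *Ghrhr* in 3 pools and *Lhb* in 1 pool. The pituitary receptors for both releasing hormones were not high in that pool, with *Crhr1* at 11.8 CPM and *Trhr* at 10.99 CPM. The telencephalic list summed to between 44.5 and 64.6 CPM and the choroid plexus list to between 30.1 and 38.2 CPM. Neither had a gene with an unadjusted p under 0.05 among its 7 and 5 tested genes, and their medians were 0.0185 and 0.088. With each pool left out in turn these medians ranged from -0.11 to 0.10 and from -0.043 to 0.62, so both changed sign.

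**Figure D1:**
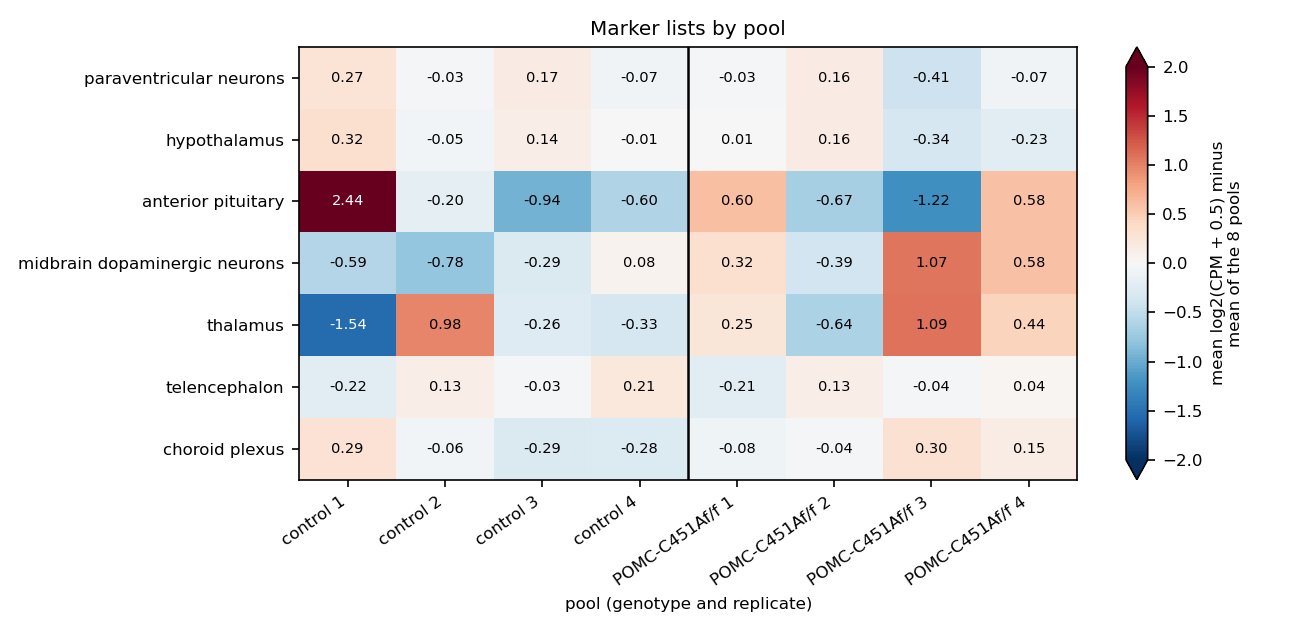
Mean log2(CPM + 0.5) of the tested genes of 7 marker lists in each of the 8 pools, minus the mean of the 8 pools for the list; red is higher, blue lower, and colours end at 2 in each direction. POMC-C451Af/f replicate 3 is lowest in both hypothalamic lists, at -0.41 and -0.34, and highest in the midbrain list, at 1.07.

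Of the 10 genes, 0 were called between genotypes in edgeR's quasi-likelihood test, which asked for an FDR of at most 0.05 and a log2 fold change beyond 0.5 in size, where 0.0215% of all tested genes were called. DESeq2 also called 0. With an unadjusted p under 0.05 there were 3 of the 10 in each tool, *Trh*, *Thrb* and *Thra*, all lower in POMC-C451Af/f pools, against 5.1% of all tested genes in edgeR. Adjusted p-values of the 10 lay between 0.878 and 0.95 in edgeR's test. In DESeq2 the lowest of the 10 was 0.302, for *Trh* (unadjusted p = 0.000724, DESeq2). The groups did not overlap in 2 of the 10, *Trh* and *Thrb*, against 2.78% of all tested genes. The median log2 fold change was -0.097, with 7 below 0 and 3 above. This rested largely on POMC-C451Af/f replicate 3, without which the median was -0.0104, with 5 below 0 and 5 above. With any other pool left out it was between -0.117 and -0.0688, with 7 below 0. With the midbrain list mean as a covariate it was -0.0115, with 6 below 0 and 4 above. The hypothalamus list mean, a covariate chosen after seeing the data, gave -0.0112, with 5 on each side. With all pools and no covariate, the median absolute value was 0.117, beside 0.0601 over all tested genes. The 95% intervals of the 10 reached no further than -0.44 and 0.28, so larger differences lay outside all of them.

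**Figure D2:**
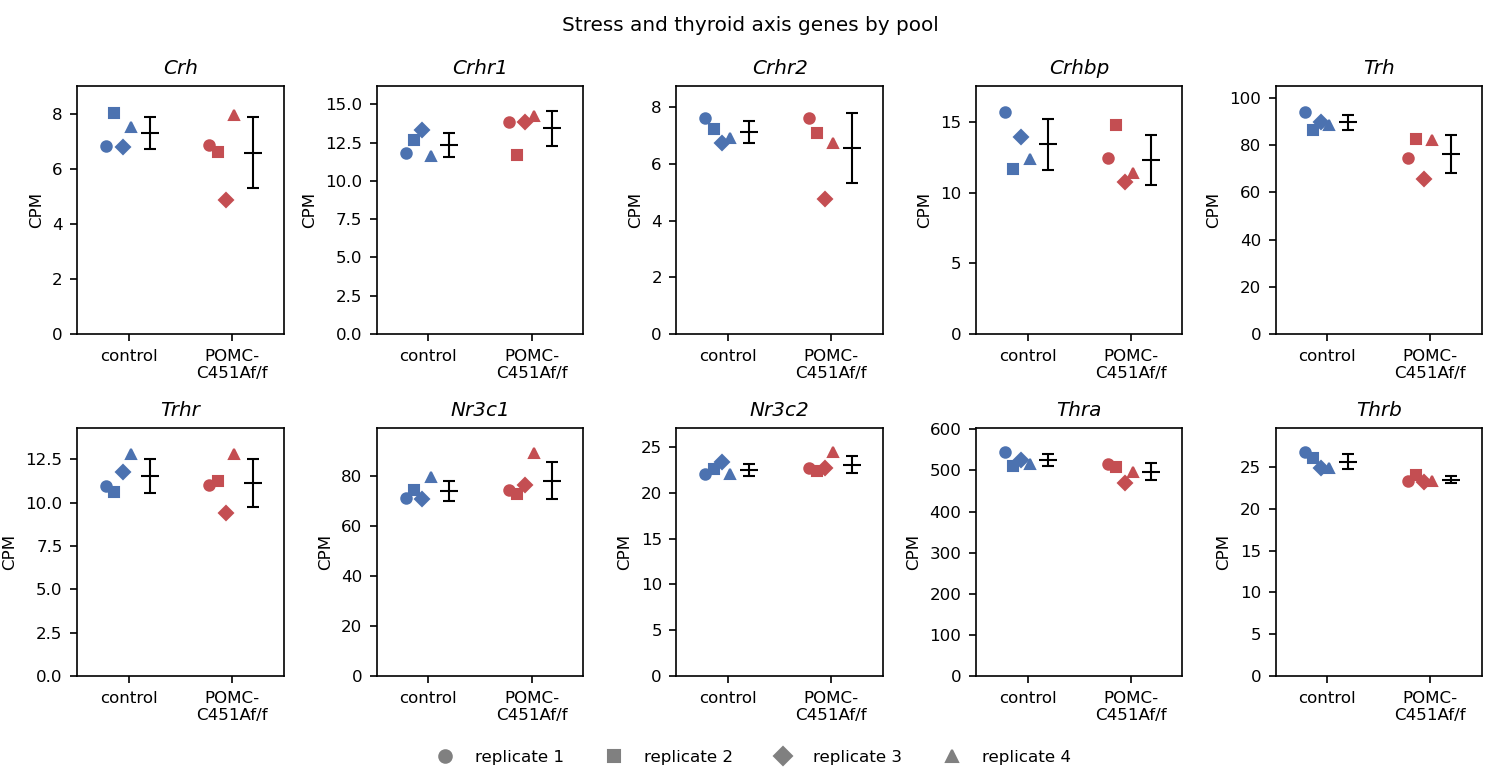
Level in CPM of each of the 10 genes in the 4 control pools (blue) and the 4 POMC-C451Af/f pools (red), with a symbol for each replicate number and, beside the points, the mean and SD in black. *Trh* and *Thrb* show no overlap between the groups, and the diamond of POMC-C451Af/f replicate 3 is the lowest of the 8 pools in 7 of the 10 panels.

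Per length of transcript, the order of levels in controls ran from *Thra*, at 114 ± 3.16 CPM per kb (SD, n = 4 pools), through *Trh* at 64.8 ± 2.35, *Nr3c1* at 9.63 ± 0.528, *Crhbp* at 7.46 ± 0.999, *Crh* at 5.54 ± 0.448, *Crhr1* at 5.03 ± 0.323, *Nr3c2* at 3.47 ± 0.0966, *Thrb* at 3.46 ± 0.129 and *Trhr* at 2.89 ± 0.246 to *Crhr2* at 1.39 ± 0.0764. Neighbours in this order overlapped between pools for *Crh* with *Crhr1* and for *Nr3c2* with *Thrb*. The thyrotropin-releasing hormone gene was thus far more abundant than the corticotropin-releasing hormone gene in every pool. In POMC-C451Af/f pools the same genes stood in the same places, except that *Crhr1* (5.45 ± 0.468 CPM per kb) came before *Crh* (from 3.70 to 6.05 CPM per kb), and these overlapped, as *Crh* did with *Nr3c2* and *Thrb* with *Trhr*. Lengths are those of all annotated exons merged, which exceed the length of a single transcript.

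*Crh* (ENSMUSG00000049796.5, chr3:19693401-19695396 on GRCm38, minus strand) encodes corticotropin-releasing hormone. It was at 6.89, 6.64, 4.89 and 7.98 CPM in POMC-C451Af/f replicates 1 to 4 and at 6.85, 8.05, 6.81 and 7.52 CPM in control replicates 1 to 4. The groups overlapped widely, and POMC-C451Af/f replicate 3 lay farthest below the controls. Between genotypes the log2 fold change was -0.15 with a 95% interval from -0.44 to 0.15 (unadjusted p = 0.3 and adjusted p = 0.891, edgeR). Without POMC-C451Af/f replicate 3 it was -0.028, and without POMC-C451Af/f replicate 4 it was -0.25 (unadjusted p = 0.0849, edgeR). The gene had between 174 and 351 estimated counts in a pool.

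*Trh* (ENSMUSG00000005892.5, chr6:92242061-92244650 on GRCm38, minus strand) encodes the precursor of thyrotropin-releasing hormone. It was at 74.7, 82.7, 65.7 and 82.0 CPM in POMC-C451Af/f replicates 1 to 4 and at 94.1, 86.3, 89.8 and 88.6 CPM in control replicates 1 to 4. Every POMC-C451Af/f pool lay below every control pool, with POMC-C451Af/f replicate 3 lowest and control replicate 1 highest. This gave a log2 fold change of -0.23 with a 95% interval from -0.38 to -0.085 (unadjusted p = 0.00544 and adjusted p = 0.878, edgeR). A two-sided exact permutation test gave p = 0.0286, the smallest that 4 pools against 4 allow. In RNA of whole tissue, fewer cells of a type and less RNA per cell cannot be told apart. Without POMC-C451Af/f replicate 3 the log2 fold change was -0.17 (unadjusted p = 0.00569, edgeR). With the mean of the midbrain list as a covariate it was -0.13 (unadjusted p = 0.132, edgeR). With the mean of the hypothalamus list as the covariate instead, a choice made after seeing the data, it was -0.16 (unadjusted p = 0.0239, edgeR). The midbrain list and the genotype moved together in part, and their shares in this difference cannot be told apart.

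**Figure D3:**
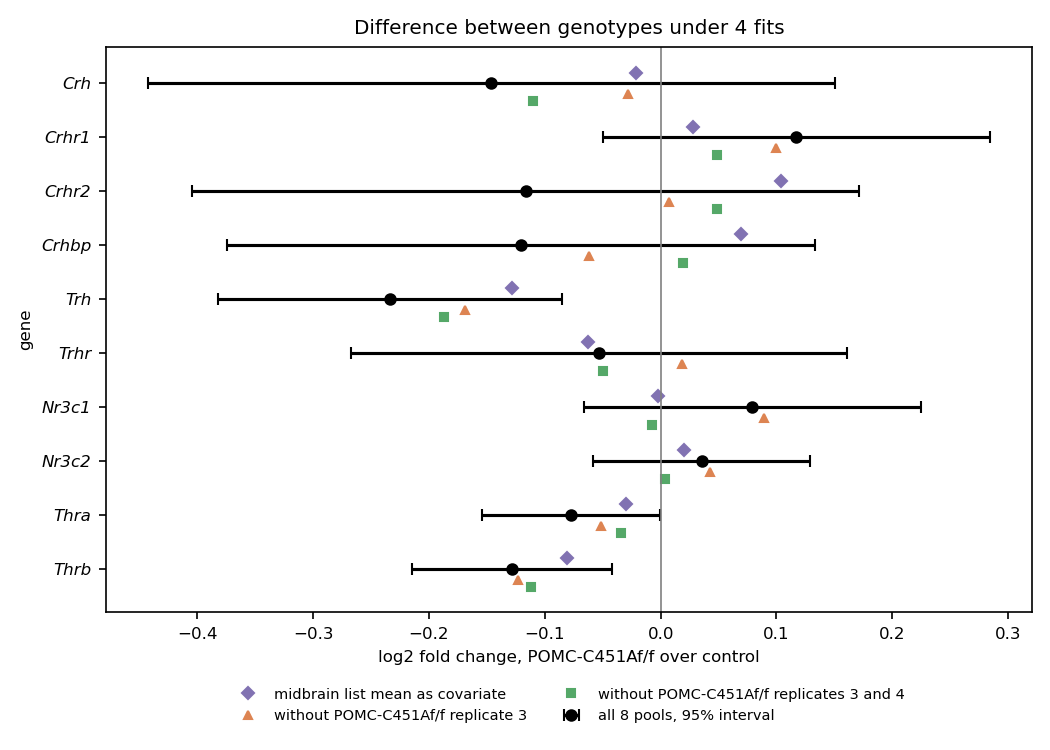
Log2 fold change of POMC-C451Af/f over control for the 10 genes with all 8 pools and its 95% interval (black), with the midbrain list mean as a covariate (violet), without POMC-C451Af/f replicate 3 (orange) and without POMC-C451Af/f replicates 3 and 4 (green). The interval excludes 0 for *Trh*, *Thrb* and *Thra*, and each of the 3 moves towards 0 in the other fits.

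Promoters are shown for the 2 genes whose groups did not overlap, *Trh* and *Thrb*, a choice made from these same values. Neither gene was called, and a link between their levels was not tested. The promoters come from RefSeq on GRCm38.p6 and span 250 bases before to 50 bases after an annotated start. Matches to the nuclear receptor half-site AGGTCA, searched on both strands, are in capitals. The *Trh* window is chr6:92244601-92244900 on the minus strand, and *Thrb* has windows at a pair of starts, chr14:17660710-17661009 and chr14:17981394-17981693, both on the plus strand.
Trh: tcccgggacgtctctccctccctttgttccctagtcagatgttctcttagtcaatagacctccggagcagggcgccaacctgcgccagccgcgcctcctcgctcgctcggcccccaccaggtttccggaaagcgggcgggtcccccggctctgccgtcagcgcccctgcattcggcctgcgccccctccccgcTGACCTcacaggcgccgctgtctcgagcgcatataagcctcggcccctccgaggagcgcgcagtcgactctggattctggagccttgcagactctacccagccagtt
Thrb, upstream start: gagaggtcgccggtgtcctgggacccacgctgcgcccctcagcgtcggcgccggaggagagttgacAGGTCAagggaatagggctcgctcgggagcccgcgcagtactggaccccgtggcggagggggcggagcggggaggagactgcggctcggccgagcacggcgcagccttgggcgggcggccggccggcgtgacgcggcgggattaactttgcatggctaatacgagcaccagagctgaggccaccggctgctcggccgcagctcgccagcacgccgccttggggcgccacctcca
Thrb, downstream start: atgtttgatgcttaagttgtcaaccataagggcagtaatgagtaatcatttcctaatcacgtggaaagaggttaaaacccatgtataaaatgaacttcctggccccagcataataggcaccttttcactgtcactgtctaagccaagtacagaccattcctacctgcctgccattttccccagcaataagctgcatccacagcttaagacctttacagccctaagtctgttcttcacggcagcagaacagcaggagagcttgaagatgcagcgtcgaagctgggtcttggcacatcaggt

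In the *Trh* window the half-site begins 57 bases before the start, as its reverse complement TGACCT, and at the upstream start of *Thrb* it begins 184 bases before. The downstream start of *Thrb* has no match in its window. RefSeq promoters were matched for 6 of the 10 genes, 7 windows in all, and none was matched for *Crh*, *Trhr*, *Nr3c1* and *Thra*. Beside those of *Trh* and *Thrb*, the *Crhbp* window holds the half-site, 152 bases before its start. It was thus found in 3 of the 7 windows and in 16.3% of all 32851 promoters of that length. The glucocorticoid receptor half-site TGTTCT, searched likewise, was found in 2 of the 7 and in 19.0% of all promoters, 211 bases before the start in *Trh* and, on both strands, at the downstream start of *Thrb*. The full cyclic AMP response element TGACGTCA was found in 0 of the 7 and in 1.79% of all promoters. These matches describe letters in a window, and no binding was measured.

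Across the 8 pools, *Crh* and *Trh* were set against *Sim1* and *Otp*, which encode transcription factors of paraventricular neurons, against *Avp* and *Oxt*, the vasopressin and oxytocin genes, and against each other, 9 relations in all. *Trh* had a Pearson r of 0.777 with *Otp* (exact permutation p = 0.0226, adjusted p = 0.0868), with a Spearman rho of 0.81 (exact permutation p = 0.0218, adjusted p = 0.126). With *Avp* its r was 0.771 (exact permutation p = 0.0195, adjusted p = 0.0868) and rho 0.786 (exact permutation p = 0.0279, adjusted p = 0.126). With *Oxt* its r was 0.761 (exact permutation p = 0.0289, adjusted p = 0.0868) and rho 0.643 (exact permutation p = 0.0962, adjusted p = 0.289). None of the 9 relations passed the adjustment. Without the 2 pools farthest from the median of the other gene, r of *Trh* was 0.273 with *Otp*, 0.325 with *Avp* and 0.0685 with *Oxt*, so over all 8 pools these relations rest on POMC-C451Af/f replicate 3 and control replicate 1. Leaving out the extreme pools also narrows the range over which r is taken.

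POMC-C451Af/f replicate 3 and control replicate 1 were kept when r was taken within the genotypes, so these values are not free of those pools. With 4 pools in each genotype, r of *Trh* was above 0 for all 3 genes, *Otp*, *Avp* and *Oxt*. With *Otp* it was 0.728 over the POMC-C451Af/f pools and 0.92 over the controls, with *Avp* 0.789 and 0.658, and with *Oxt* 0.82 and 0.767. *Crh* had an r of 0.749 with *Sim1* (exact permutation p = 0.0569, adjusted p = 0.128) but a rho of 0.333 (exact permutation p = 0.428, adjusted p = 0.77), and r was -0.407 without POMC-C451Af/f replicates 3 and 4. This r had opposite signs within the genotypes, 0.987 over the POMC-C451Af/f pools and -0.429 over the controls. *Crh* with *Trh* had an r of 0.697 (exact permutation p = 0.0719, adjusted p = 0.129) and a rho of 0.167 (exact permutation p = 0.703, adjusted p = 0.84). Without POMC-C451Af/f replicate 3 and control replicate 2 this r was -0.0683, and it was 0.875 within POMC-C451Af/f pools and -0.833 within controls. The remaining relations were those of *Trh* with *Sim1*, with r 0.655 and rho 0.405, and of *Crh* with *Otp*, *Avp* and *Oxt*, with r 0.319, 0.343 and 0.416 and rho -0.0952, -0.0952 and -0.143. Without POMC-C451Af/f replicate 3 and control replicate 1 the r of *Crh* with *Otp*, *Avp* and *Oxt* turned to -0.695, -0.593 and -0.778, and that of *Trh* with *Sim1* was 0.187 without POMC-C451Af/f replicates 3 and 4. For these 4 relations the adjusted p-values from exact permutation were between 0.13 and 0.446 for r.

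Among the 18636 other tested genes, the 5 with the highest Pearson r to *Crh* over the 8 pools were *Mmd*, *Chek1*, *Tro*, *Kcnn4* and *Camkk1*, with r from 0.952 to 0.966. For *Trh* they were *P3h3*, *Sbsn*, *Mustn1*, *Klhl12* and *C4b*, with r from 0.955 to 0.968. The pools share their libraries and tissue composition across genes, and these values are descriptions of 8 points.

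*Crhbp* encodes a secreted protein that binds corticotropin-releasing hormone and keeps it from its receptors. It was at 10.8 to 14.8 CPM in POMC-C451Af/f pools and 11.7 to 15.7 CPM in control pools, and the groups overlapped. Its log2 fold change was -0.12 with a 95% interval from -0.37 to 0.13 (unadjusted p = 0.316 and adjusted p = 0.892, edgeR). It was -0.22 without POMC-C451Af/f replicate 2 and -0.039 without control replicate 1. Its sign reversed with the midbrain list mean as a covariate (0.069), with the hypothalamus list mean (0.066) and without POMC-C451Af/f replicates 3 and 4 (0.020).

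*Crhr1* encodes the receptor that carries the action of the hormone on the pituitary and in much of the brain. *Crhr2* encodes another receptor of the same family. *Crhr1* was at 13.9, 11.7, 13.9 and 14.2 CPM in POMC-C451Af/f replicates 1 to 4 and at 11.6 to 13.3 CPM in controls, a log2 fold change of 0.12 (95% interval -0.050 to 0.28, unadjusted p = 0.151 and adjusted p = 0.878, edgeR). POMC-C451Af/f replicate 2 was the low pool of its group, and without it the value for *Crhr1* was 0.17 (unadjusted p = 0.025, edgeR). With the midbrain list mean as a covariate it was 0.028 (unadjusted p = 0.785, edgeR), and it was 0.053 with the hypothalamus list mean and 0.049 without POMC-C451Af/f replicates 3 and 4. *Crhr2* was at 7.63, 7.09, 4.77 and 6.76 CPM in POMC-C451Af/f replicates 1 to 4 and at 6.73 to 7.62 CPM in controls. Both genes overlapped between genotypes, and only POMC-C451Af/f replicate 3 was clearly below the controls in *Crhr2*. Its log2 fold change was -0.12 (95% interval -0.40 to 0.17, unadjusted p = 0.391 and adjusted p = 0.911, edgeR) and turned to 0.0075 without that pool. *Trhr*, the gene of the receptor for thyrotropin-releasing hormone, was at 9.41 to 12.8 CPM in POMC-C451Af/f pools and 10.6 to 12.8 CPM in controls. Its log2 fold change was -0.053 (95% interval -0.27 to 0.16, unadjusted p = 0.595 and adjusted p = 0.95, edgeR), and it turned to 0.018 without POMC-C451Af/f replicate 3.

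The corticosteroid receptors were alike in level between genotypes within their spread. *Nr3c1*, the gene of the glucocorticoid receptor, was at 72.7 to 89.3 CPM in POMC-C451Af/f pools and 70.8 to 79.6 CPM in controls, with the highest value in POMC-C451Af/f replicate 4. Its log2 fold change was 0.079 (95% interval -0.066 to 0.22, unadjusted p = 0.253 and adjusted p = 0.888, edgeR), and 0.0099 without that pool. The sign for *Nr3c1* reversed with the midbrain list mean as a covariate (-0.0019) and without POMC-C451Af/f replicates 3 and 4 (-0.00765). *Nr3c2*, the gene of the mineralocorticoid receptor, was at 22.4 to 24.5 CPM in POMC-C451Af/f pools and 22.0 to 23.4 CPM in controls, a log2 fold change of 0.035 (95% interval -0.058 to 0.13, unadjusted p = 0.422 and adjusted p = 0.916, edgeR). It was 0.0061 without POMC-C451Af/f replicate 4. *Nr3c2* shares 247 exon bases with *Gm10649* on the opposite strand. That gene had 276 estimated counts over the 8 pools against 7286 for *Nr3c2*, and the libraries were made with a stranded kit, while the use of strand in counting is not given in the sources used here.

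The thyroid hormone receptor genes were both lower in POMC-C451Af/f pools by small amounts that did not pass the adjustment over all genes. *Thrb* (ENSMUSG00000021779.20, chr14:17660261-18038090 on GRCm38, plus strand) encodes receptor beta, through which thyroid hormone acts back on *Trh*. It was at 23.4, 24.0, 23.1 and 23.3 CPM in POMC-C451Af/f replicates 1 to 4 and at 26.8, 26.1, 24.9 and 24.8 CPM in control replicates 1 to 4. The groups did not overlap, and the POMC-C451Af/f pools lay close together. Their log2 fold change over the controls was -0.13 with a 95% interval from -0.21 to -0.042 (unadjusted p = 0.00764 and adjusted p = 0.878, edgeR; two-sided exact permutation p = 0.0286). It was -0.12 without POMC-C451Af/f replicate 3 and -0.080 with the midbrain list mean as a covariate (unadjusted p = 0.133, edgeR). With the hypothalamus list mean as the covariate it was -0.105 (unadjusted p = 0.0351, edgeR).

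*Thra* (ENSMUSG00000058756.14, chr11:98740638-98769006 on GRCm38, plus strand) encodes receptor alpha, the main form in most of the brain. It was at 515, 508, 469 and 495 CPM in POMC-C451Af/f replicates 1 to 4 and at 545, 512, 525 and 516 CPM in control replicates 1 to 4. The groups overlapped in POMC-C451Af/f replicate 1, which was above control replicate 2. The log2 fold change was -0.078 with a 95% interval from -0.15 to -0.00058 (unadjusted p = 0.0486 and adjusted p = 0.878, edgeR; two-sided exact permutation p = 0.0571). Without POMC-C451Af/f replicate 3 it was -0.052 (unadjusted p = 0.132, edgeR). It was -0.0295 with the midbrain list mean as a covariate (unadjusted p = 0.496, edgeR) and -0.033 with the hypothalamus list mean (unadjusted p = 0.234, edgeR). *Thra* shares 263 exon bases with *Nr1d1* on the opposite strand, so that its counts are uncertain to the extent that reads were not told apart by strand. *Nr1d1* had 26743 estimated counts over the 8 pools against 163702 for *Thra*.

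POMC-C451Af/f replicate 3 was the lowest of the 8 pools in 7 of the 10 genes, *Crh*, *Crhr2*, *Crhbp*, *Trh*, *Trhr*, *Thra* and *Thrb*, beside 16.3% of all tested genes. It was also the pool with the least hypothalamic marker RNA and the most midbrain marker RNA. Control replicate 1 was the highest pool in 4 of the 10, beside 16.1% of all tested genes. With the midbrain list mean as a covariate, 0 of the 10 genes had an unadjusted p under 0.05 in edgeR's test, 2 did without POMC-C451Af/f replicate 3, and 1, *Trh*, did without POMC-C451Af/f replicates 3 and 4, a setting chosen after seeing the data. In that last fit the log2 fold change of *Trh* was -0.19 (unadjusted p = 0.00737, edgeR). With the hypothalamus list mean as a covariate, also chosen after seeing the data, 2 of the 10, *Trh* and *Thrb*, had an unadjusted p under 0.05 in edgeR's test.

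Among the other ligands of the corticotropin-releasing hormone family, 1 of 3 genes could be tested, *Ucn3*, the urocortin 3 gene. It was at 4.81, 4.38, 1.77 and 2.70 CPM in POMC-C451Af/f replicates 1 to 4 and at 3.63 to 4.49 CPM in controls, a log2 fold change of -0.22 (95% interval -0.79 to 0.35, unadjusted p = 0.413 and adjusted p = 0.916, edgeR). The value for *Ucn3* without POMC-C451Af/f replicate 3 was -0.0072, and with the midbrain list mean as a covariate it was 0.24. Of the adrenal axis regulators 6 of 8 were tested, with 0 higher and 1 lower at an unadjusted p under 0.05 in edgeR's test, none in DESeq2, and a median of -0.076. With each pool left out in turn this median ranged from -0.11 to -0.038 and the number lower from 0 to 2. With the midbrain list mean as a covariate the median turned to 0.019, and with the hypothalamus list mean it was -0.0019. In both of these fits 0 genes were lower at an unadjusted p under 0.05. The gene that was lower with all 8 pools and no covariate, *Pomc*, encodes the precursor of corticotropin and of melanocortins. It was at 49.5, 50.2, 35.8 and 30.6 CPM in POMC-C451Af/f replicates 1 to 4 and at 98.9, 49.7, 50.5 and 50.8 CPM in control replicates 1 to 4. The groups overlapped, and the control pool that held the most pituitary RNA stood far above the rest. For *Pomc* the log2 fold change was -0.59 (95% interval -1.11 to -0.062, unadjusted p = 0.0319 and adjusted p = 0.878, edgeR), and -0.28 without control replicate 1 (unadjusted p = 0.0971, edgeR). It was -0.52 without POMC-C451Af/f replicate 3 (unadjusted p = 0.0765, edgeR) and -0.47 without POMC-C451Af/f replicate 4 (unadjusted p = 0.0897, edgeR). *Pomc* also had no unadjusted p under 0.05 in edgeR's test with the midbrain or the hypothalamus list mean as a covariate. *Avp*, whose product acts with corticotropin-releasing hormone on the pituitary, ranged from 116 to 229 CPM in POMC-C451Af/f pools and from 152 to 261 CPM in controls, a log2 fold change of -0.36 (unadjusted p = 0.106, edgeR). For *Avp* this was -0.56 without POMC-C451Af/f replicate 2 (unadjusted p = 0.0098, edgeR), -0.49 without control replicate 4 (unadjusted p = 0.0312, edgeR), -0.22 without POMC-C451Af/f replicate 3 and 0.11 with the midbrain list mean as a covariate. *Adcyap1* and its receptor gene *Adcyap1r1* had log2 fold changes of -0.034 and 0.020, which ranged from -0.082 to 0.0083 and from -0.0026 to 0.0385 with each pool left out in turn. *Adcyap1* turned to 0.0265 with the midbrain list mean as a covariate, 0.06 with the hypothalamus list mean and 0.044 without POMC-C451Af/f replicates 3 and 4. In the same fits *Adcyap1r1* was at 0.012, 0.037 and 0.036.

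All 14 corticosteroid responsive genes, which are raised by corticosteroids through the receptors above, were tested. At an unadjusted p under 0.05 there were 0 higher and 0 lower in edgeR's test and 0 called, with a median log2 fold change of -0.135 and 11 of 14 below 0. DESeq2 had 1 lower. With POMC-C451Af/f replicate 2 left out, 6 were lower at an unadjusted p under 0.05 in edgeR's test, with a median of -0.19. The median was -0.20 without control replicate 1 and -0.039 without POMC-C451Af/f replicate 4, so the count and the median both depended on single pools. The 3 most abundant were *Tsc22d3*, *Klf9* and *Mt1*, with log2 fold changes of -0.20, 0.0076 and -0.11. *Tsc22d3* ranged from -0.26 to -0.090 with each pool left out in turn, with an unadjusted p under 0.05 in 2 of 8 fits, *Klf9* from -0.067 to 0.043 and *Mt1* from -0.19 to -0.0055. With the midbrain list mean as a covariate *Klf9* turned to -0.09 and *Mt1* to 0.0065. POMC-C451Af/f replicate 4 was the lowest of the 8 pools in 12 of the 14 genes, beside 16.0% of all tested genes, and the summed level was 743 CPM in that pool against 901 to 1056 CPM in the others. *Tsc22d3*, which encodes a leucine zipper protein induced by glucocorticoids, was at 101.5 CPM there and between 130 and 161 CPM elsewhere. *Plin4*, named after its values were seen, was at 22.3 CPM there and between 30.3 and 68.4 CPM elsewhere. *Crh* had its highest POMC-C451Af/f value, 7.98 CPM, in the same pool, but its highest of all pools, 8.05 CPM, in control replicate 2. POMC-C451Af/f replicate 4 was the highest pool in 3 of the 10 axis genes, *Crhr1*, *Nr3c1* and *Nr3c2*, beside 17.4% of all tested genes. It was also the lowest in 3 of 4 thyroid hormone responsive genes and in 4 of 6 tested genes of thyroid hormone transport and metabolism. What set this pool apart was not tested. No value of circulating corticosteroids was used here.

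**Figure D4:**
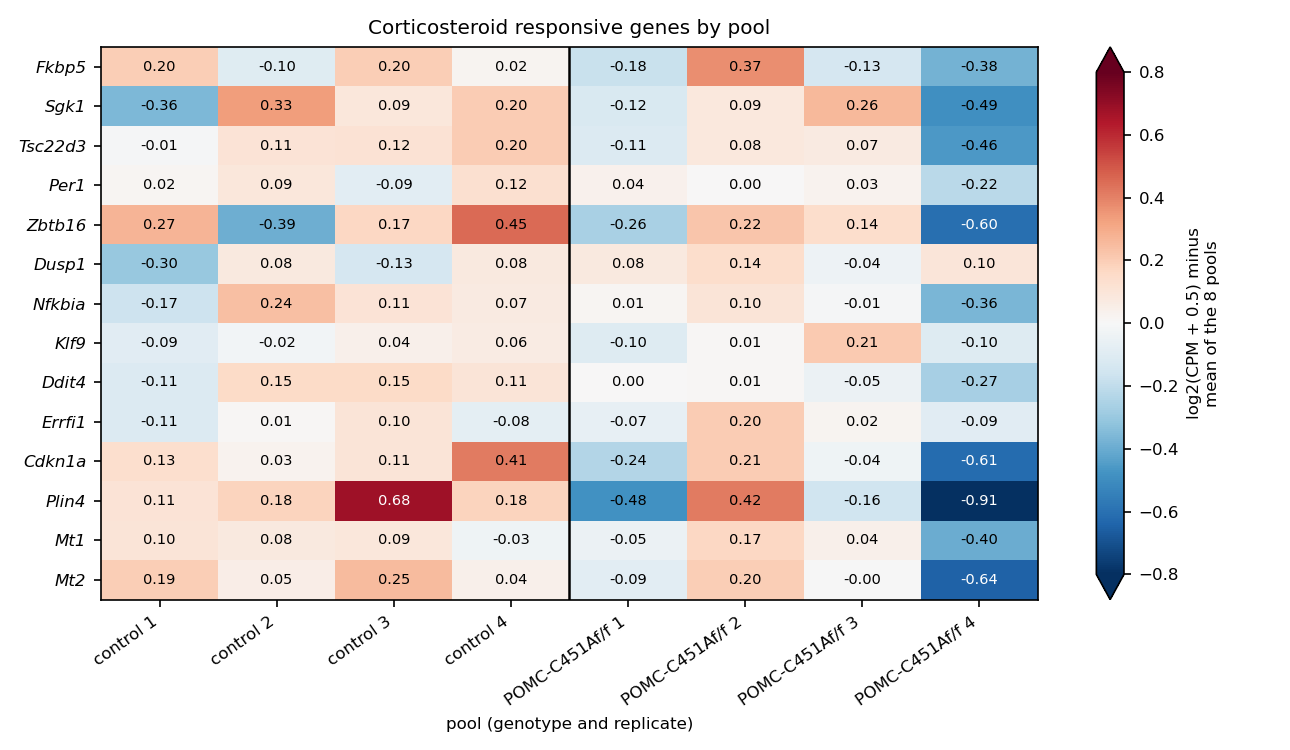
Log2(CPM + 0.5) of the 14 corticosteroid responsive genes in each of the 8 pools, minus the mean of the 8 pools for the gene; red is higher, blue lower, and colours end at 0.8 in each direction. POMC-C451Af/f replicate 4 is the lowest pool in 12 of the 14 genes, by up to -0.91 for *Plin4*.

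The 7 chaperones that hold corticosteroid receptors ready for their hormone had 0 genes with an unadjusted p under 0.05 and a median of -0.0037, which ranged from -0.027 to 0.0019 with each pool left out in turn. The most abundant, *Hspa8*, *Hsp90ab1* and *Hsp90aa1*, had log2 fold changes of 0.018, -0.0037 and -0.0029. The 95% interval of *Hspa8* went from -0.032 to 0.069, that of *Hsp90ab1* from -0.063 to 0.056 and that of *Hsp90aa1* from -0.060 to 0.054. The groups overlapped in all 3. They ranged, in the same order, from 0.00039 to 0.026, from -0.028 to 0.0077 and from -0.020 to 0.0038 with each pool left out in turn.

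Of the 7 genes that process or degrade the peptides, 0 were higher and 1 was lower at an unadjusted p under 0.05, with a median of -0.033. With each pool left out in turn this median ranged from -0.079 to 0.0051, with 0 to 2 higher and 0 to 2 lower, and DESeq2 had 1 higher and 1 lower. *Qpct* encodes an enzyme that forms the pyroglutamate end of peptides, an end that thyrotropin-releasing hormone carries. It was at 28.1, 29.0, 27.9 and 30.6 CPM in POMC-C451Af/f replicates 1 to 4 and at 35.2, 28.5, 31.7 and 32.5 CPM in control replicates 1 to 4, and the groups overlapped through control replicate 2. For *Qpct* the log2 fold change was -0.15 (95% interval -0.28 to -0.012, unadjusted p = 0.0357 and adjusted p = 0.878, edgeR). With each pool left out in turn it ranged from -0.20 to -0.098, with an unadjusted p under 0.05 in 2 of 8 fits, those without control replicate 2 and without POMC-C451Af/f replicate 4. It was -0.16 with the midbrain list mean as a covariate (unadjusted p = 0.0914, edgeR). The convertase gene *Pcsk2* had a log2 fold change of 0.11 (95% interval -0.0021 to 0.21), the carboxypeptidase gene *Cpe* 0.057 (95% interval -0.026 to 0.14) and the amidating enzyme gene *Pam* -0.070 (95% interval -0.18 to 0.042). Single pools moved all 3. *Pcsk2* was 0.065 without POMC-C451Af/f replicate 3 and 0.15 without POMC-C451Af/f replicate 2 (unadjusted p = 0.00269, edgeR). *Cpe* was 0.029 without control replicate 1 and 0.081 without POMC-C451Af/f replicate 2 (unadjusted p = 0.0366, edgeR). For *Pam* the value was -0.035 without POMC-C451Af/f replicate 3 and -0.11 without control replicate 2 (unadjusted p = 0.0257, edgeR). With the midbrain list mean as a covariate the 3 were at 0.0075, 0.0026 and -0.042.

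Thyroid hormone transport and metabolism was covered by 8 genes, of which 6 were tested, 0 higher and 1 lower at an unadjusted p under 0.05, with a median of 0.082. With each pool left out in turn this median ranged from -0.043 to 0.14, with 0 to 3 higher and 0 to 1 lower, and DESeq2 had 1 higher and 1 lower. *Slc16a10*, an amino acid transporter gene whose product also carries thyroid hormone, was at 2.74, 3.30, 2.56 and 2.25 CPM in POMC-C451Af/f replicates 1 to 4 and at 3.20, 3.46, 3.31 and 3.52 CPM in control replicates 1 to 4. Only POMC-C451Af/f replicate 2 reached into the control range. The log2 fold change was -0.31 (95% interval -0.60 to -0.030, unadjusted p = 0.0333 and adjusted p = 0.878, edgeR). With each pool left out in turn it ranged from -0.42 to -0.23, with an unadjusted p under 0.05 in 2 of 8 fits, those without control replicate 1 and without POMC-C451Af/f replicate 2. With the midbrain list mean as a covariate *Slc16a10* was at -0.165 (unadjusted p = 0.327, edgeR). *Dio2*, which encodes the enzyme that makes active hormone in the brain, was at 14.7 to 21.0 CPM in POMC-C451Af/f pools and 14.8 to 17.8 CPM in controls. Its log2 fold change was 0.20 (unadjusted p = 0.0854, edgeR), with 0.12 to 0.28 and an unadjusted p under 0.05 in 2 of 8 fits when each pool was left out in turn. The transporter gene *Slco1c1* had a log2 fold change of 0.17 (95% interval -0.0017 to 0.33), with 0.11 to 0.22 and an unadjusted p under 0.05 in 3 of 8 such fits, and 0.0945 with the midbrain list mean as a covariate. *Ttr*, the transthyretin gene, ranged from 0.695 to 7.47 CPM over the 8 pools and overlapped between genotypes. *Dio1* was at 0 in 6 pools.

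The 4 thyroid hormone responsive genes had 0 higher and 1 lower at an unadjusted p under 0.05 and a median of -0.041, which ranged from -0.071 to -0.0096 with each pool left out in turn. *Hr*, a corepressor gene that thyroid hormone raises in brain, was at 82.1, 112, 97.0 and 59.3 CPM in POMC-C451Af/f replicates 1 to 4 and at 126, 113, 130 and 105.5 CPM in control replicates 1 to 4. POMC-C451Af/f replicate 2 lay within the controls and the other 3 POMC-C451Af/f pools below them, replicate 4 lowest. The log2 fold change was -0.44 (95% interval -0.78 to -0.089, unadjusted p = 0.0187 and adjusted p = 0.878, edgeR). Without POMC-C451Af/f replicate 4 it was -0.29 (unadjusted p = 0.0216, edgeR), without control replicate 3 -0.39 (unadjusted p = 0.0526, edgeR), without POMC-C451Af/f replicate 1 -0.41 (unadjusted p = 0.05, edgeR) and with the midbrain list mean as a covariate -0.28 (unadjusted p = 0.194, edgeR). *Klf9*, which answers to both thyroid hormone and corticosteroids and is in both lists, and *Nrgn*, the neurogranin gene, at a log2 fold change of -0.090 (95% interval -0.27 to 0.089), overlapped between genotypes. *Nrgn* ranged from -0.15 to -0.021 with each pool left out in turn and was 0.081 with the midbrain list mean as a covariate.

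The 11 partners of nuclear receptors, coactivators, corepressors and retinoid X receptors, had 0 genes with an unadjusted p under 0.05 in edgeR's test and a median of -0.0022, which ranged from -0.0152 to 0.0154 with each pool left out in turn. The corepressor gene *Ncor1* had a log2 fold change of 0.071 (95% interval -0.024 to 0.17), and the coactivator gene *Ncoa1* -0.0094 (95% interval -0.13 to 0.11). Both overlapped between genotypes, and with each pool left out in turn they ranged from 0.044 to 0.093 and from -0.047 to 0.035. With the midbrain list mean as a covariate *Ncoa1* was at -0.105 (unadjusted p = 0.115, edgeR).

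**Figure D5:**
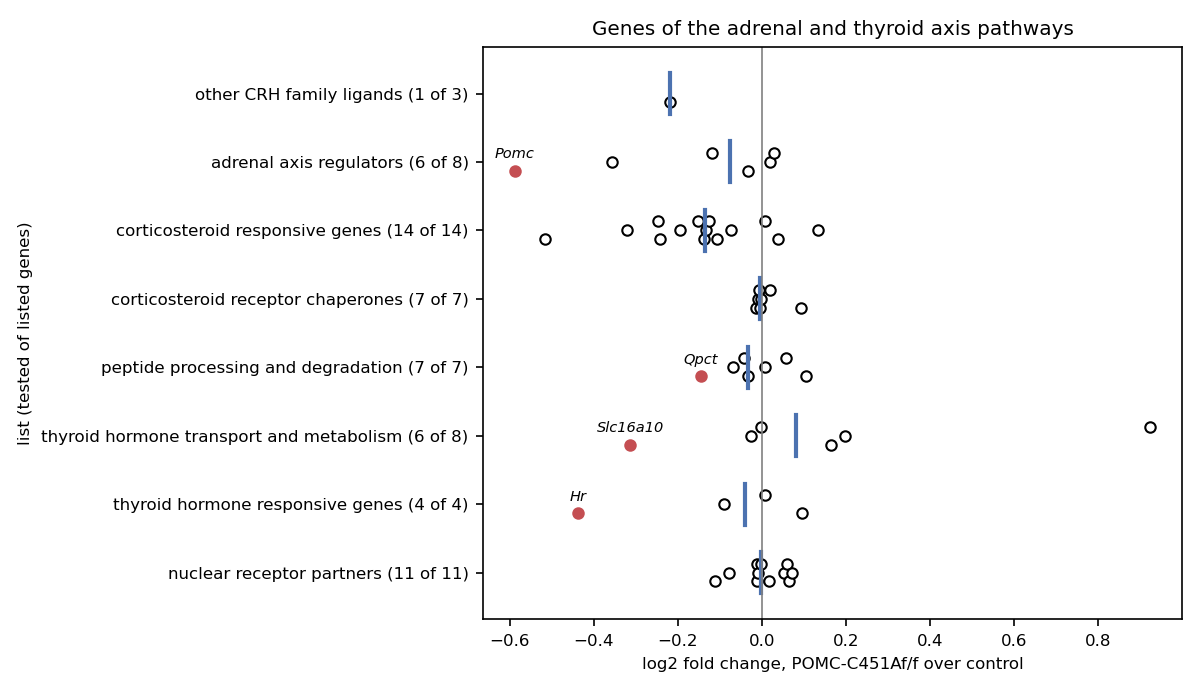
Log2 fold change of POMC-C451Af/f over control for each tested gene of 8 pathway lists; filled points are genes with an unadjusted p under 0.05 in edgeR's test, and the blue line is the median of the list. The 4 filled points are *Pomc*, *Qpct*, *Slc16a10* and *Hr*, each below 0, from lists of 6, 7, 6 and 4 tested genes. The remaining lists had 0 such genes. Over all tested genes 5.1% had an unadjusted p under 0.05 in edgeR's test, 504 higher and 446 lower in POMC-C451Af/f pools.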

How the data were processed

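Hypothalamic RNA of 8 pools, 4 of each genotype, was analysed. The authors quantified poly(A) RNA-seq reads with Salmon 1.10 against GENCODE on GRCm39 and summed them to genes with tximport, and deposited the estimated counts, not normalized between pools. The authors' deposited comparison (mean, fold change, its error, test statistic and p-values, made with DESeq2 1.40) was not used. Identifiers were matched to GENCODE annotation on GRCm38 for symbols, positions and exon lengths (51424 of 55890), without converting coordinates.

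Rounded counts of genes that passed filterByExpr of edgeR 4.0.16 (R 4.3.3), with a minimum of 10 counts and a minimum total of 15, were scaled by TMM. The quasi-likelihood fit held genotype and no other factor, and Benjamini-Hochberg adjustment ran over 18637 genes. A call needed an adjusted p of at most 0.05 and a log2 fold change beyond 0.5 in size. Standard errors are the size of the log2 fold change divided by the square root of F, and 95% intervals use the t distribution. Exact permutation tests and correlations used log2(CPM + 0.5) in scipy 1.17.1. The procedure was tested on simulated data.

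The 10 genes and all lists were chosen with earlier results of these data known. Genes were named by rule: the 10 genes; of each other list, those with an unadjusted p under 0.05 and the 3 most abundant; and the 5 genes most correlated with *Crh* and with *Trh*. Single values of some of these genes are not reported here. Alternatives were DESeq2 1.42.0, DESeq2 size factors, total counts, all genes unfiltered, a filter of at least 10 counts in each of the pools, a block for replicate number, the midbrain list mean as a covariate, FDR alone and each pool left out. The hypothalamus list mean as a covariate, and leaving out the 2 pools highest in *Slc6a3*, were chosen after seeing the data.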

Additional observations from a re-analysis of the deposited data

Results flagged for a closer look

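A pool far from the other 3 of its group was looked for in 112 groups of 4 pools, for 56 named genes, by the gap to the nearest pool as a share of the group's whole range. It was found 13 times. Chance alone gives about 1 in 20 for a single group, but genes of the same pool move together and many of these genes were named for their values in the same pools, so the 13 cannot be set against a number from chance. Control replicate 1 was high in *Pomc* (gap 0.978), *Gh* (gap 0.953), *Prl* (gap 0.942) and *Cga* (gap 0.852). Of these, *Gh* was at 410 CPM against 4.52 to 23.5 CPM in the other controls and *Cga* at 20.3 CPM against 3.07 to 5.61 CPM. Control replicate 2 was high in *Prkcd* (gap 0.831) and *Slco1c1* (gap 0.863) and low in *Hsp90aa1* (gap 0.929) and *Pam* (gap 0.843). *Prkcd* was at 169 CPM in it against 16.5 to 42.3 CPM. Control replicate 4 was low in *Mt1* (gap 0.846), at 123 CPM against 133 to 135 CPM.

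Among the 10 axis genes, POMC-C451Af/f replicate 2 was low in *Crhr1* (gap 0.846), at 11.7 CPM against 13.9 to 14.2 CPM, and POMC-C451Af/f replicate 4 was high in *Nr3c2* (gap 0.875), at 24.5 CPM against 22.4 to 22.7 CPM. POMC-C451Af/f replicate 4 was also high in *Clic6* (gap 0.907), at 19.1 CPM against 17.5 to 17.6 CPM. What set these pools apart was not tested.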

How the results depend on the processing

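Genes called between genotypes numbered 4, and 12 with DESeq2, 2 with at least 10 counts in every pool, and 7 without the 2 pools highest in *Slc6a3*, chosen after seeing the data; leaving out each pool in turn gave 4 to 5. With the replicate number as a block (replicate block) 2 were called. After subtraction of the genotype means, pools sharing a number had correlations of 0.141, -0.179, -0.109 and 0.243. These differ in sign and give no evidence of pairing by number, though they cannot exclude it. The block changed no call among the 10 axis genes, of which none was called in any fit.

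Of the 10, the number with an unadjusted p under 0.05 was 3, and 0 with the midbrain list mean as a covariate, 2 (*Trh* -0.16 and *Thrb* -0.105) with the mean of the hypothalamus list, a covariate added after seeing the data, 1 without the 2 pools highest in *Slc6a3*, and 2 to 4 with each pool left out. Over these left-out fits *Trh* ranged from -0.28 to -0.17 and *Thrb* from -0.14 to -0.11, both with an unadjusted p under 0.05 in all 8, and *Thra* from -0.097 to -0.052, in 3 of 8. *Crhr2* ranged from -0.20 to 0.0075 and *Trhr* from -0.13 to 0.018, both changing sign without POMC-C451Af/f replicate 3. *Crh* ranged from -0.25 to -0.028, *Crhbp* from -0.22 to -0.039, *Crhr1* from 0.088 to 0.17, *Nr3c1* from 0.0099 to 0.11 and *Nr3c2* from 0.0061 to 0.054. With the midbrain covariate *Crhr2* was 0.10, *Crhbp* 0.069 and *Nr3c1* -0.0019. With the hypothalamus list mean as a covariate *Crhr2* was 0.012 and *Crhbp* 0.066, and without the 2 pools highest in *Slc6a3* *Crhr2* was 0.049, *Crhbp* 0.020 and *Nr3c1* -0.00765. The cause was not tested.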

Other observations

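*Ucn*, the urocortin gene, which is known best from a midbrain nucleus, did not pass the filter on low counts and was named after its values were seen. It was at 6.85 CPM in POMC-C451Af/f replicate 3 and 1.53 CPM in POMC-C451Af/f replicate 4, the pools with the most midbrain marker RNA. In the other 6 pools it was at most 0.45 CPM, and at 0 in POMC-C451Af/f replicate 2 and control replicate 1.

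POMC-C451Af/f replicate 1 was the highest of the 8 pools in 6 of the 7 chaperone genes, beside 9.29% of all tested genes. *Hspa8* was at 2334 CPM in it and between 2205 and 2253 CPM in the other pools.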
